A study of Mus musculus with 18 samples.

Results

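NF-kB is a small family of transcription factors that carries inflammatory signals into the nucleus, and its activity is held in check by inhibitors, some of which it switches on itself. The 10 genes described here are the 5 subunits (Nfkb1, Nfkb2, Rel, Rela, Relb) and 5 inhibitors (Nfkbia, Nfkbib, Nfkbie, Nfkbiz, Tnfaip3). They were taken by name from the 29875 genes of the count table, and all 10 were among the 13844 genes that passed the filter on low counts. RNA came from dendritic cells (DCs) that were differentiated from the bone marrow of wild-type C57Bl6/J mice (8 to 12 weeks old) with GM-CSF and matured from day 8 on with LPS at 200 ng/ml for 24 hours, so every library, controls included, is from LPS-treated cells. DCs migrated in collagen gels at 1 of 4 densities (in mg/ml, 1.7 and 2.6, then 3.5 and 4.4) toward a source of the chemokine CCL19, and RNA was taken 5 hours after the gradient was set up. The controls were DCs in the same chambers without collagen, here called suspension, in 2 groups. One was titled as having CCL19 and the other as having none, but the library names say the opposite, so each group keeps its title as its name and differences between them are not read as effects of CCL19. Each of the 6 groups held 3 libraries labelled as biological replicates, with total counts of 13062944 to 28059839, and counts of the 10 genes ranged from 91 to 39018 per library.

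The subunits act as pairs. RelA and c-Rel (Rel) pair with p50, the product of Nfkb1, in the canonical pathway that LPS triggers through Toll-like receptors, whereas RelB pairs with p52, the product of Nfkb2, in the noncanonical pathway. Classical inhibitors (IκBα from Nfkbia, IκBβ from Nfkbib, IκBε from Nfkbie) hold the pairs in the cytoplasm until the IKK kinase complex marks them for destruction. IκBζ (Nfkbiz) instead sits in the nucleus, where it is needed to induce a subset of secondary inflammatory genes, and A20 (Tnfaip3) removes ubiquitin chains upstream of IKK.

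All 10 are protein-coding genes, given here with their positions in GRCm38 and identifiers. Among the subunits, Nfkb1 (ENSMUSG00000028163) is at chr3:135584655-135691547, Nfkb2 (ENSMUSG00000025225) at chr19:46304320-46312385, Rel (ENSMUSG00000020275) at chr11:23736847-23770970, Rela (ENSMUSG00000024927) at chr19:5637483-5648130, and Relb (ENSMUSG00000002983) at chr7:19606217-19629438. Among the inhibitors, Nfkbia (ENSMUSG00000021025) is at chr12:55489410-55492647, Nfkbib (ENSMUSG00000030595) at chr7:28758251-28767512, Nfkbie (ENSMUSG00000023947) at chr17:45555703-45563169, Nfkbiz (ENSMUSG00000035356) at chr16:55811375-55838899, and Tnfaip3 (ENSMUSG00000019850) at chr10:19000910-19015657. Nfkb2, Rela, and Nfkbie are on the plus strand and the others on the minus strand.

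Several of these genes are known targets of NF-kB, so the stretch before their transcription start was searched for the kB consensus (10 bases, both strands, matches on opposite strands allowed to overlap). RefSeq windows (GRCm38.p6) were at hand for 7 of the 10 genes, and 5 of the 7 had a match in the 250 bases before a start (Nfkb2, Rel, Nfkbia, Nfkbie, Tnfaip3), whereas Nfkbib and Rela had none. Of all 32851 windows, 3.9% held a match. The stretches of Nfkbia, Tnfaip3, Rel, and Nfkbie are shown because they hold a match before the start of a feedback inhibitor (Nfkbia, Tnfaip3), a subunit (Rel), and an inhibitor that leaned lower in collagen (Nfkbie). Capitals mark the bases covered by a match, and each line reads 5′ to 3′ on the gene's strand, from bases without any annotated exon. Each start is that of the RefSeq window. The Tnfaip3 stretch precedes such a start but lies inside the position of the gene given above (chr10:19000910-19015657), outside annotated exons. A match is only a description of the letters.
Nfkbia, chr12:55492648-55492706, minus strand, 59 to 1 bases before the start: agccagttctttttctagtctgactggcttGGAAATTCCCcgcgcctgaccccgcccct
Tnfaip3, chr10:19015411-19015547, minus strand, 137 to 1 bases before the start: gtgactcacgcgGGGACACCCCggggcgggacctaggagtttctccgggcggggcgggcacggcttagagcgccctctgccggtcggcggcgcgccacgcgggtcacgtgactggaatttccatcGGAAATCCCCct
Rel, chr11:23771021-23771091, minus strand, 122 to 52 bases before the start: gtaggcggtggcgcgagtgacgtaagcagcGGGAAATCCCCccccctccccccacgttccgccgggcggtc
Nfkbie, chr17:45555564-45555633, plus strand, 136 to 67 bases before the start: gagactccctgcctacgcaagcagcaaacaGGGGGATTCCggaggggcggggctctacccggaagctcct

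Levels differed widely between the members. In CPM (counts relative to the TMM-scaled library size) per kb of merged exons, the median over the 18 libraries was highest for Nfkb2 (211), followed by Nfkbib (180), Nfkbia (163), and Relb (114). Rela (63.7), Nfkb1 (45.5), Rel (32.3), and Nfkbie (28.6) were in the middle, and Tnfaip3 (13.7) and Nfkbiz (4.99) were lowest. Neighbors in this order often swapped places: Nfkb2 was above Nfkbib in 12 of 18 libraries, and Rel was above Nfkbie in 10 of 18. Relb was above Rela, and Tnfaip3 was above Nfkbiz, in 18 of 18 libraries, although the ranges of all neighbors overlapped. Per kb, the genes of the noncanonical pair, Nfkb2 and Relb, thus stood above the other subunits, and Nfkbiz was the least abundant member. The place of Nfkb1 depends on its merged exons, the longest of the members at 12061 bases (Relb 3885). Without division by length, the median of Nfkb1 (549 CPM) was above that of Relb (445 CPM).

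**Figure D1:**
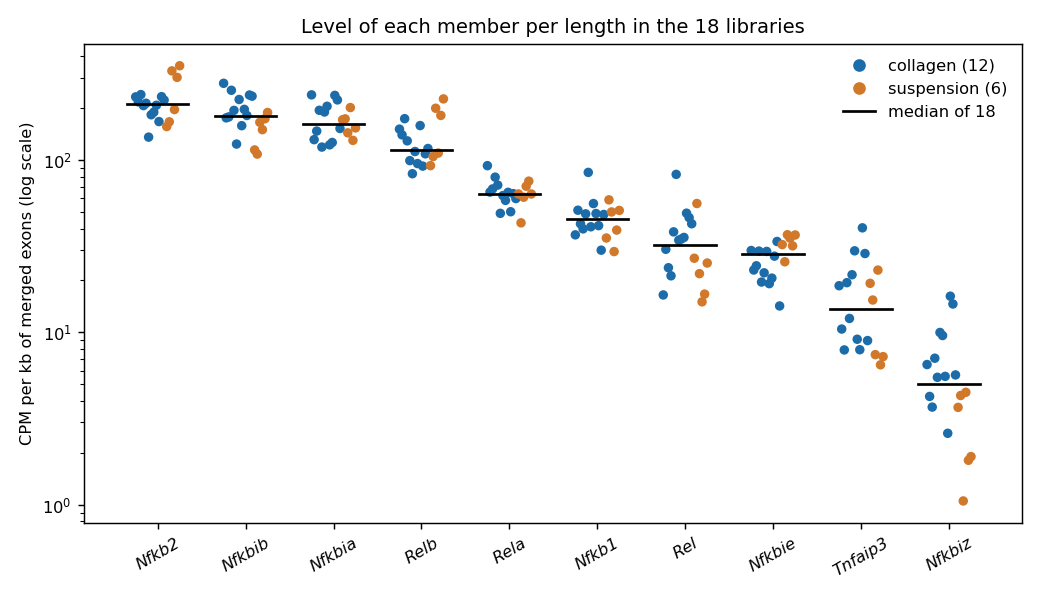
CPM per kb of merged exons (log scale) of the 10 members in the 12 collagen (blue) and 6 suspension (orange) libraries, each point 1 library and each line the median of 18. Members are ordered by their median, from Nfkb2 at 211 to Nfkbiz at 4.99 CPM per kb, and the points of neighbors overlap.

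Before the comparisons, the libraries were checked. All 12 DC markers passed the filter, with a summed level of 18609 to 59986 CPM. So did all 10 macrophage markers, at a summed 403 to 2672 CPM. Sums over different genes cannot by themselves settle the DC label. In bulk RNA, fewer cells of a type and less RNA per cell cannot be told apart. Eosinophil markers moved with collagen: all 8 tested of 9 were lower in collagen, with a summed level of 14.1 to 169 CPM in collagen and 118 to 1359 CPM in suspension. Of 11 neutrophil markers, 3 were lower in collagen (summed level 1057 to 5181 against 642 to 9788 CPM), and so were Flt3 and Ciita of the DC list and Kit of the basophil and mast cell list (35 to 174 against 69 to 158 CPM). Of the 12 DC markers, 9 had a positive log2 difference, and none passed as higher. Of all genes tested, 7.78% passed as higher and 12.4% as lower in collagen in the same fit. No lymphocyte marker passed the test among the 3 of 8 tested, with summed levels of 0.72 to 13.2 CPM. With the replicate block described below, 6 of the 10 macrophage markers rose in collagen, at a summed 403 to 2672 CPM against 426 to 2396 CPM in suspension. Of the 12 DC markers, 2 rose and 2 fell in that fit, where 34.8% of all genes passed in either direction. Of all listed markers, 1 lymphocyte gene was at 0 in all suspension libraries. The part of these cells in the results below was not tested. The library of replicate 3 at 2.6 mg/ml stood farthest from the others, and its log2 level fell by 0.82 per 10 points of GC content. Replicate 2 at 4.4 mg/ml and replicate 1 of the suspension titled plus CCL19 had the steepest slopes the other way, at 0.57 each. The edgeR p-values below set differences against the spread between libraries. In the fit without the block, libraries that share a replicate number are treated as independent. In the fit with it, differences between replicate numbers are taken out of that spread.

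Comparing collagen with suspension asks whether the members' RNA differed between DCs migrating in a matrix toward CCL19 and DCs without collagen. All collagen libraries had a CCL19 source, but by either set of labels only 1 of the 2 suspension groups did. Matrix, migration, and CCL19 therefore cannot be told apart in this comparison. Nfkbiz was the member that passed the test, 2.49-fold higher in collagen, and none of the subunits did. Across all genes, 20.2% passed (7.78% higher and 12.4% lower in collagen; edgeR's quasi-likelihood test, adjusted p under 0.1), and 1 of 10 members is a share below this background. The members' median log2 fold change was 0.10 against 0.00 over all genes. When the replicate number was added to the fit as a block, since libraries of 1 number share a date and lane, 34.8% of all genes and 3 of 10 members passed (Nfkbiz and Nfkbib higher, Nfkbie lower). With offsets for GC content and length in that fit, 37.1% of genes passed and 6 of 10 members (Nfkb1, Rel, and Tnfaip3 higher in addition).

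Of the subunits, Rel, which encodes c-Rel, had the largest difference. Its level was 123, 227, and 177 CPM at 1.7 mg/ml (replicates 1 to 3), 159, 286, and 617 CPM at 2.6 mg/ml, 256, 260, and 265 CPM at 3.5 mg/ml, and 367, 346, and 319 CPM at 4.4 mg/ml. The suspension libraries had 112, 125, and 189 CPM when titled plus CCL19 and 201, 418, and 164 CPM when titled without. The 3 libraries at 4.4 mg/ml were tightly grouped and above 5 of the 6 suspension libraries, and the highest value of all, 617 CPM, was in the library that stood farthest apart. The log2 difference between collagen and suspension was 0.51 ± 0.27 (SE) and did not pass the test (edgeR, adjusted p = 0.23, and 0.11 with the block).
At 4.4 mg/ml, where 14.8% of all genes passed against suspension, it was 0.84 ± 0.36 (adjusted p = 0.16). There, 31.9% of genes passed with the block, Rel among them, at 0.89 ± 0.31 (edgeR, adjusted p = 0.047). Rel had the lowest GC content of the members (42.5%). With offsets for GC content and length it was 0.86 ± 0.23 at 4.4 mg/ml (edgeR, adjusted p = 0.026; 16.6% of genes passed), whereas its difference at 2.6 mg/ml shrank from 0.88 ± 0.36 to 0.40 ± 0.23, neither of which passed. With the block alone, Rel passed at 2.6 mg/ml (0.82 ± 0.32, edgeR, adjusted p = 0.092), but in 4 of the 18 fits that each left out 1 library, with log2 differences of 0.20 to 1.14 and adjusted p up to 0.756, the lowest difference without replicate 3 at 2.6 mg/ml. At 4.4 mg/ml, 17 of the 18 fits with the block called Rel, and the call was lost without replicate 1 at that density (0.60, edgeR, adjusted p = 0.248).

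Nfkb2 and Relb, the genes of the noncanonical pair, leaned the other way without passing. Nfkb2 was at 623 to 1100 CPM in collagen (median 967) and 718 to 1618 CPM in suspension (median 1143). Relb was at 324 to 676 CPM in collagen (median 445) and 361 to 880 CPM in suspension (median 566). For both, the groups overlapped and suspension reached higher, and the highest suspension values came from replicate 3 in both groups. The log2 differences were -0.29 ± 0.19 for Nfkb2 (edgeR, adjusted p = 0.36) and -0.33 ± 0.20 for Relb (adjusted p = 0.31). The sign for Nfkb2 was not stable: without replicate 3 the log2 difference was 0.03, and with GC and length offsets it was 0.0004. Nfkb2 shares 531 exon bases with AC114539.1 and 299 with Psd on the opposite strand, and whether the counting used strand is not given in the sources used here, so its level is uncertain.

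Of the subunits, Rela and Nfkb1, which encode the canonical pair, had the smallest log2 differences between collagen and suspension. Rela was at 151 to 285 CPM in collagen (median 198) and 133 to 232 CPM in suspension (median 195), a log2 difference of 0.06 ± 0.15 (edgeR, adjusted p = 0.84). Nfkb1 was at 362 to 1023 CPM in collagen (median 549) and 355 to 709 CPM in suspension (median 538), a log2 difference of 0.10 ± 0.20 (adjusted p = 0.78). With GC and length offsets and the block, Nfkb1 passed (0.38 ± 0.15, edgeR, adjusted p = 0.057). The groups overlapped for both genes, and the 1023 CPM of Nfkb1 again belonged to replicate 3 at 2.6 mg/ml.

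**Figure D2:**
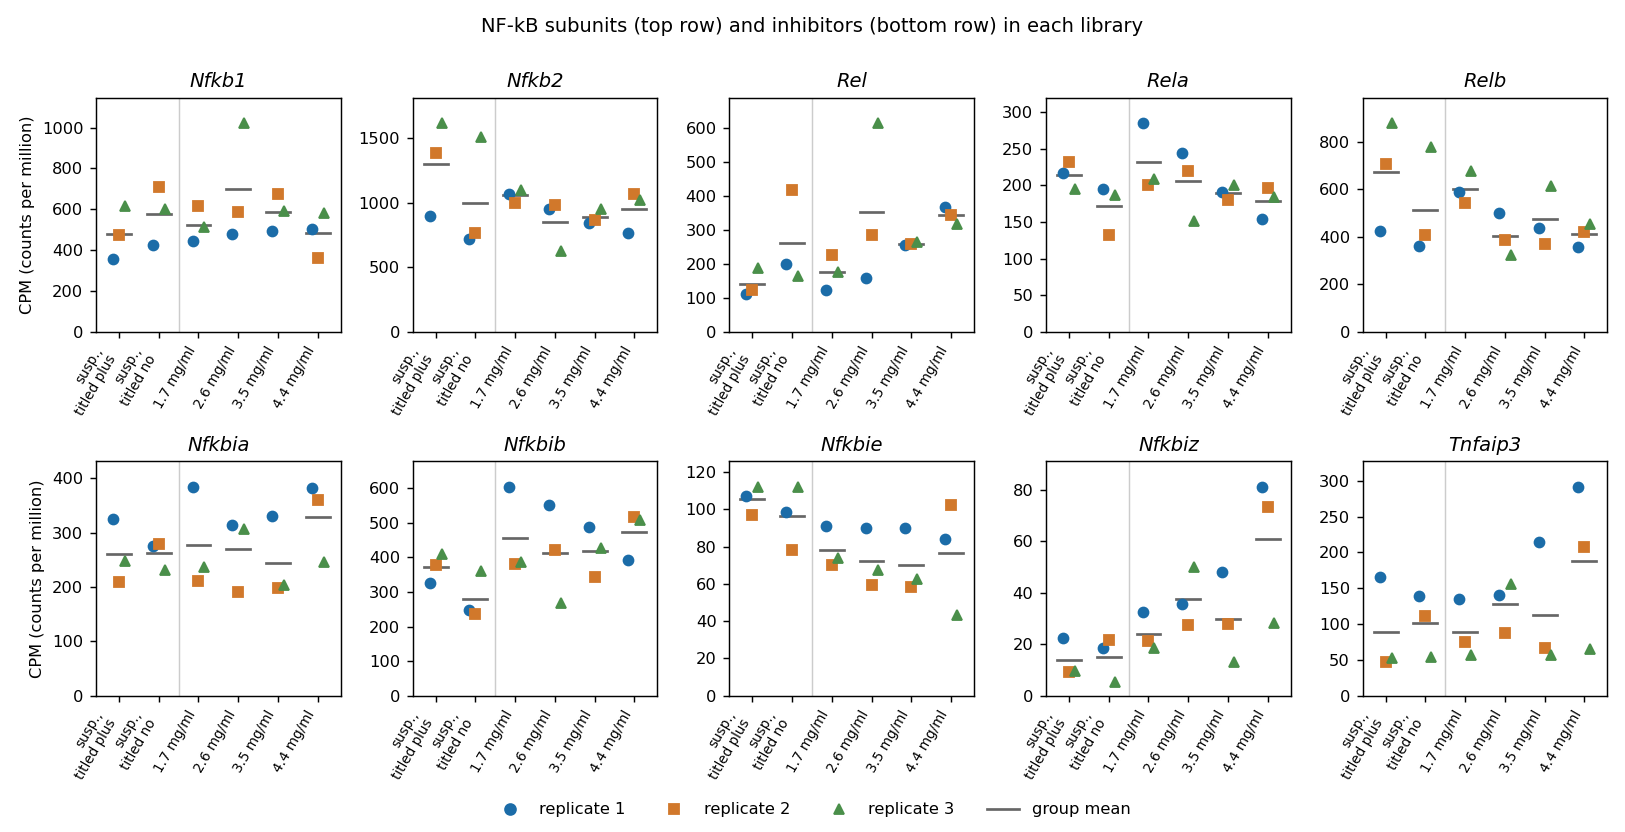
CPM of each member in each of the 18 libraries by group, with 3 replicates per group (circles, squares, and triangles for replicates 1, 2, and 3) and gray lines for group means. Nfkbiz lies at 5.3 to 22.5 CPM in suspension and at 28.4 to 81.4 CPM at 4.4 mg/ml, whereas Rela and Nfkb1 overlap between the groups.

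Nfkbiz, the gene of the nuclear IκB protein IκBζ, rose in collagen. In suspension it was at 22.5, 9.1, and 9.5 CPM (titled plus CCL19, replicates 1 to 3) and at 18.4, 21.6, and 5.3 CPM (titled without). It was at 32.6, 21.3, and 18.5 CPM at 1.7 mg/ml, 35.5, 27.5, and 50.1 CPM at 2.6 mg/ml, 48.1, 27.9, and 13.02 CPM at 3.5 mg/ml, and 81.4, 73.3, and 28.4 CPM at 4.4 mg/ml. Every library at 2.6 and at 4.4 mg/ml was above all 6 suspension libraries (10.5% and 14.2% of all genes did not overlap in these comparisons, in either direction), whereas 1.7 and 3.5 mg/ml overlapped with suspension. Over all densities, the log2 difference was 1.32 ± 0.36 (edgeR, adjusted p = 0.024, and 1.38 ± 0.27 with the block, adjusted p = 0.0014). It was higher in collagen in 3 of 3 replicates, by 1.18, 1.23, and 1.76 on the log2 scale. An exact two-sided permutation test over the 18 libraries gave p = 0.0031 (18564 assignments), unadjusted and 1 of 70 such tests of single members. The same exact permutation test over the 18 libraries gave p = 0.0092 for Nfkbie and p = 0.017 for Nfkbib. For the other members, this exact permutation test gave p above 0.05. The assignments moved libraries freely across replicate numbers. These exact permutation p-values therefore do not allow for the pairing of libraries by replicate number.
At 4.4 mg/ml Nfkbiz was 4.24-fold higher than in suspension (log2 difference 2.08 ± 0.46, edgeR, adjusted p = 0.010). At 2.6 mg/ml the log2 difference was 1.39 ± 0.46, just outside the threshold (adjusted p = 0.10), and it passed with the block (1.63 ± 0.36, adjusted p = 0.0071). The call with the block was lost without replicate 3 at that density (0.87, edgeR, adjusted p = 0.127). In that comparison 7.87% of all genes passed without the block and 21.6% with it. At 3.5 mg/ml it was 1.04 ± 0.47 (adjusted p = 0.26, and 0.077 with the block, where 18.4% of genes passed, against 4.9% without). This value ranged from 0.50 without replicate 1 to 1.40 without replicate 3 of that density, and the call with the block was kept in 12 of the 18 fits that left out 1 library (0.74 to 1.27, adjusted p up to 0.351). At 1.7 mg/ml it was 0.74 ± 0.47 (adjusted p = 0.76), where 0.0361% of genes passed, and 2.91% with the block and no member. Both calls of Nfkbiz, over all densities and at 4.4 mg/ml, were kept in each of the 18 fits that left out 1 library, with log2 differences of 1.11 to 1.62 and of 1.82 to 2.42. Without replicate 2 of every group, the differences were 1.44 and 2.02, and neither passed (adjusted p = 0.19 and 0.21). These comparisons then called 631 and 106 of 14106 genes, against 2790 and 2054 of 13844 with all libraries.

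Nfkbie, the gene of IκBε, leaned lower in collagen. It was at 43.3 to 103 CPM in collagen (median 72.1) and 78.2 to 112 CPM in suspension (median 103). Of the suspension libraries, 5 of 6 had at least 96.8 CPM, and 1 of the 12 collagen libraries, replicate 2 at 4.4 mg/ml, reached that level. The log2 difference was -0.44 ± 0.18 (edgeR, adjusted p = 0.12). With the block it was -0.45 ± 0.16 and passed (adjusted p = 0.048), and it was lower in 3 of 3 replicates. Against suspension it lay between -0.36 and -0.52 at all 4 densities, and no single density passed. With the block, the call was lost without replicate 3 of either suspension group.

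Nfkbib, the gene of IκBβ, leaned higher by about the same amount. It was at 269 to 605 CPM in collagen (median 424) and 235 to 410 CPM in suspension (median 343), and the groups overlapped. The log2 difference was 0.45 ± 0.19 (edgeR, adjusted p = 0.13), and 0.44 ± 0.18 with the block (adjusted p = 0.074). It was higher in collagen in 3 of 3 replicates, by 0.82, 0.47, and 0.01 on the log2 scale, so replicate 3 showed next to no difference. In the 18 fits with the block that each left out 1 library, Nfkbib passed in 7. The log2 differences were 0.36 to 0.56 (edgeR, adjusted p up to 0.228), so the call was close to the threshold and not stable. Nfkbib shares 314 exon bases with Ccer2 and 42 with Sirt2 on the opposite strand, which leaves the same doubt as for Nfkb2.

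Tnfaip3 and Nfkbia, the feedback inhibitors, did not pass between collagen and suspension in edgeR, without the block or with the block alone. Tnfaip3 passed with offsets and the block, as given above. Tnfaip3 was at 57.1 to 292 CPM in collagen (median 111) and 46.8 to 166 CPM in suspension (median 82.5), a log2 difference of 0.40 ± 0.39 (edgeR, adjusted p = 0.55). It ranged from 0.18 without replicate 1 at 3.5 mg/ml to 0.85 without replicate 1 of the suspension titled plus CCL19, and did not pass in any of the 18 fits without the block that left out 1 library. With the block, Tnfaip3 passed in 2 of such 18 fits (edgeR, lowest adjusted p = 0.094). Nfkbia was at 192 to 385 CPM in collagen (median 276) and 210 to 325 CPM in suspension (median 262), a log2 difference of 0.09 ± 0.19 (adjusted p = 0.80). At 4.4 mg/ml Tnfaip3 had 292, 207, and 64.7 CPM, so replicates 1 and 2 were above all suspension libraries, while replicate 3 was inside their range. Its log2 difference there was 0.99 ± 0.52 (adjusted p = 0.25). With the block it was 0.97 ± 0.33 and passed (edgeR, adjusted p = 0.038), together with Nfkbib (0.56 ± 0.24, adjusted p = 0.098), Rel, and Nfkbiz. Without replicate 2 at 4.4 mg/ml, Tnfaip3 fell to 0.57 and was not called with the block. The call of Nfkbib there was kept in 4 of the 18 fits with the block that left out 1 library (0.42 to 0.74, adjusted p up to 0.317, the lowest difference without replicate 2 at 4.4 mg/ml).

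**Figure D3:**
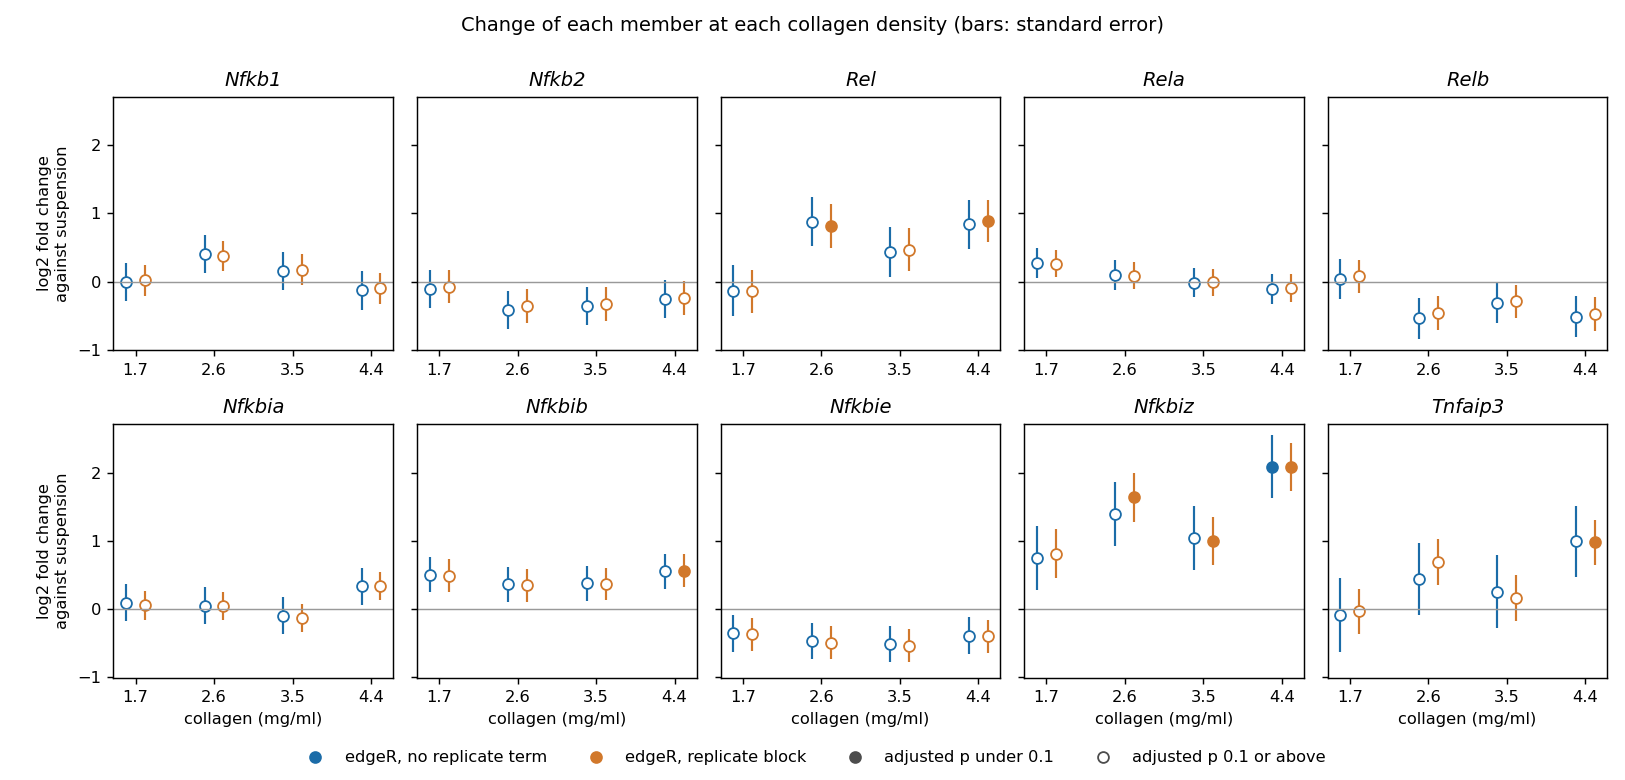
Log2 fold change against suspension of each member by collagen density (x axis, mg/ml), without (blue) and with (orange) the replicate block, with bars for the standard error and filled points for adjusted p under 0.1. Without the block, the filled point is Nfkbiz at 4.4 mg/ml (2.08), and Nfkbie lies below 0 at all 4 densities.

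Among collagen libraries, the question was whether denser gels changed the members further. No member passed for the linear trend over the 4 densities, where 0.00722% of all genes passed, or for 4.4 against 1.7 mg/ml, where the share was the same. With the block, 1.45% and 1.73% of genes passed and again no member. Other fits did call members: with GC and length offsets and the block, Rel passed for the trend (0.31 ± 0.08 log2 units per mg/ml, edgeR, adjusted p = 0.059), where 5.12% of genes passed, and Rel, Nfkbiz, and Tnfaip3 were higher at 4.4 than at 1.7 mg/ml, where 7.02% passed. DESeq2 with the block called Rel and Nfkbiz between these ends, and 6.34% of genes. Nfkbiz had the steepest slope, 0.41 ± 0.20 log2 units per mg/ml (edgeR, adjusted p = 0.70). Tnfaip3 (0.34 ± 0.22) and Rel (0.27 ± 0.15) followed, and Relb (-0.16 ± 0.12) and Rela (-0.14 ± 0.09) had the most negative slopes.
Between the ends of the series, the libraries of 3 of 10 members did not overlap, and neither did those of 10.7% of all genes. Rel was higher at 4.4 mg/ml (319 to 367 against 123 to 227 CPM), and Relb (359 to 454 against 544 to 676 CPM) and Rela (154 to 196 against 200 to 285 CPM) were lower. With 3 libraries against 3, the smallest p an exact test can give is 0.10, and the fit across all genes gave log2 differences of 0.97 ± 0.43 for Rel (edgeR, adjusted p = 0.61), -0.55 ± 0.34 for Relb (adjusted p = 0.83), and -0.38 ± 0.25 for Rela (adjusted p = 0.87). Nfkbiz was 1.34 ± 0.56 higher at 4.4 mg/ml (adjusted p = 0.57), so in this fit the difference from suspension at 4.4 mg/ml was not shown to exceed that at 1.7 mg/ml.

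Between the suspension groups, no member passed. Of the genes that passed the filter, none was called with edgeR, with or without the block (0.0%), although 855 and 1960 genes had an unadjusted p under 0.05. DESeq2 called no gene without the block, and 258 genes (2.86%) but no member with it. The largest difference was in Rel, -0.88 ± 0.43 in the group titled plus CCL19 relative to the other (edgeR, adjusted p = 0.76), which shrank to -0.27 ± 0.27 with GC and length offsets and to -0.33 without replicate 2 of the suspension titled without CCL19. Nfkbia (-0.01 ± 0.32) and Nfkbie (0.13 ± 0.30) were closest to 0.

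Part of the spread followed the replicate number instead of the group. Tnfaip3 was at 135 to 292 CPM in the 6 libraries of replicate 1 (median 153), at 46.8 to 207 CPM in those of replicate 2 (median 81.3), and at 52.2 to 156 CPM in those of replicate 3 (median 57.2). Nfkbia was likewise at 276 to 385 CPM in replicate 1 (median 328), and its medians were 211 CPM in replicate 2 and 241 CPM in replicate 3. In the other direction, Nfkb1 did not exceed 502 CPM in replicate 1, and its medians were 602 and 597 CPM in replicates 2 and 3. Macrophage markers moved with this split, at a summed 1722 to 2672 CPM in replicate 1, 509 to 1765 CPM in replicate 2, and 403 to 938 CPM in replicate 3. Neutrophil markers moved the other way, at a summed 642 to 1587 CPM in replicate 1 (median 1098), 1405 to 9788 CPM in replicate 2 (median 4199), and 1553 to 4001 CPM in replicate 3 (median 2710). The summed DC markers had medians of 29202, 39100, and 54110 CPM in replicates 1 to 3. The part of these cells in the split was not tested.

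With the mean of each replicate number subtracted, some pairs of members ran together and others ran against each other across the 18 libraries (values share library and depth). Other pairs were near 0, among them Nfkbib and Tnfaip3 (Pearson r = -0.10) and Nfkb1 and Nfkbia (r = -0.04). Nfkb2 and Relb ran together (Pearson r = 0.90, Spearman rho = 0.825, and r = 0.81 without 2 libraries). The 2 libraries left out of each pair were those farthest from the median of the gene named first. Nfkbiz and Tnfaip3 also ran together (r = 0.83, rho = 0.68, and r = 0.69), as did Rel and Tnfaip3 (r = 0.82, rho = 0.79, and r = 0.69) and Nfkbia and Tnfaip3 (r = 0.77, rho = 0.50, and r = 0.52). Rel ran against Relb (r = -0.83, rho = -0.76, and r = -0.70). Rel has 42.5% GC and Relb and Nfkb2 have 59.1%, and libraries differed in how their levels depended on GC, as given above, so the part of base composition in this opposition was not tested. Ranked by r from most to least alike among the 13843 other genes, Relb was at rank 42 for Nfkb2. Tnfaip3 was at rank 251 for Nfkbiz, 488 for Rel, and 21 for Nfkbia. Relb was at rank 13699 for Rel, so other genes ran against Rel more strongly.
Of all 13843 other genes tested, those most like Nfkbiz by the same measure were the long noncoding RNA gene Gm16973 (r = 0.961), Cxcl1 (0.961), a neutrophil-attracting chemokine, and Ptgs2 (0.96), the inducible cyclooxygenase. Those most like Rel were Cpeb4 (0.982), Ythdc1 (0.976), and Setd2 (0.973), with 39.9 to 44.5% GC. Those most like Relb were Snx20 (0.963), Eipr1 (0.944), and Scnm1 (0.938), and those most like Nfkb2 were Dxo (0.951), Ehd1 (0.947), and Mvp (0.936). Birc3, an NF-kB target that encodes a ubiquitin ligase, was close to Nfkb1 (0.891), behind Mis12 (0.919) and Zfp51 (0.893). The closest genes were Bet1l for Rela (0.924), Cybc1 for Nfkbia (0.862), Lsm4 for Nfkbib (0.957), C1qtnf6 for Nfkbie (0.924), and Vasn for Tnfaip3 (0.919).

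The rest of the pathway was read from the receptors inward. Between collagen and suspension, 20.2% of all genes passed without the block (7.78% higher and 12.4% lower). The receptors and adaptors called, both directions together, were close to this share. Of 16 receptors that signal to NF-kB, 3 rose in collagen (Tlr2, 1.37 ± 0.42 on the log2 scale; Tlr7, 1.15 ± 0.35; and Tlr1, 0.88 ± 0.29) and 1 fell. That was Tlr9, the receptor for unmethylated CpG DNA, at 0.938 to 16.97 CPM in collagen and 19.2 to 74.6 CPM in suspension. Its log2 difference was -2.16 ± 0.33 (edgeR, adjusted p = 0.0010). The LPS receptor itself, Tlr4, was at 0.84 ± 0.33 (edgeR, adjusted p = 0.103, and 0.0554 with the block). Without replicate 3 of either suspension group, 1 receptor rose. Of 18 adaptors and ubiquitin ligases, 3 rose (Bcl10, 0.92 ± 0.18; Myd88, 0.65 ± 0.16; and Traf6, 0.49 ± 0.17) and Rnf31 fell (-0.46 ± 0.18). Without replicate 1, 2, or 3 of every group, 3, 0, and 2 of them rose and 0, 0, and 1 fell. These fits called 1550, 631, and 1431 of all genes, in that order, against 2790 with all libraries. In 12 of the 18 fits that left out 1 library, no adaptor or ubiquitin ligase fell. Of 17 genes of the IKK complex and its upstream kinases, 4 rose and 4 fell. Ripk2, the kinase of the NOD receptors, was at 65.9 to 256 CPM in collagen and 27.1 to 66.0 CPM in suspension (1.42 ± 0.25), and Map3k8 (1.16 ± 0.26), Ripk1 (0.86 ± 0.21), and Tab2 (0.67 ± 0.23) rose with it. Ikbkg, the regulatory subunit NEMO, was at 30.5 to 66.8 CPM in collagen and 63.1 to 118 CPM in suspension (-0.86 ± 0.17), and Tab1, Irak4, and Irak1 fell with it. The catalytic subunits Chuk (0.14 ± 0.23) and Ikbkb (-0.04 ± 0.16) did not pass. Of this list, 5 rose and 0 fell without replicate 1 of every group, 2 rose and 1 fell without replicate 2, and 3 rose and 3 fell without replicate 3, and with 1 library left out 3 to 6 rose and 3 to 5 fell. Tlr4, Chuk, and Ikbkb were named after their values were seen.

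Among 18 other brakes of NF-kB, 6 rose and 2 fell in collagen, where 7.78% and 12.4% of all genes did. Nfkbid and Bcl3 encode the remaining nuclear IκB proteins and so belong beside Nfkbiz. Nfkbid rose, at 12.9 to 99.4 CPM in collagen and 9.99 to 17.8 CPM in suspension (log2 difference 1.05 ± 0.29, edgeR, adjusted p = 0.027), and by 2.17 ± 0.38 at 4.4 mg/ml (adjusted p = 0.0029). Bcl3 fell, at 33.7 to 99.2 CPM in collagen and 66.9 to 106 CPM in suspension (-0.57 ± 0.22, adjusted p = 0.096). Tnip3 (0.99 ± 0.38), Tax1bp1 (0.82 ± 0.27), and Ppp6c (0.58 ± 0.22) also rose, and Tnfaip8l2 fell (-0.64 ± 0.23). These calls were close to the threshold: without any 1 replicate number, 0 or 1 brake rose and none fell. Calls over all genes were also fewer in these fits, as given above. With 1 library left out, 1 to 7 brakes rose, fewest without replicate 2 of the suspension titled plus CCL19, and no brake fell in 10 of the 18 fits.

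Of 33 known NF-kB target genes tested, 10 rose and 2 fell in collagen, with a median log2 difference of 0.59. Of all genes, 7.78% rose and 12.4% fell. Ptgs2 had the largest difference (2.78 ± 0.90), at 44.3 to 1834 CPM in collagen and 4.92 to 138 CPM in suspension. Il1a (2.09 ± 0.63) and Il1b (1.92 ± 0.49), which encode interleukin-1α and -1β, and Ier3 (1.86 ± 0.56) came next. The median of Il1b was 1327 CPM in collagen and 325 CPM in suspension, and the ranges of these genes overlapped between the groups. Of the targets that fell, Mmp9 (-0.94 ± 0.29) encodes a matrix protease and Irf1 (-0.61 ± 0.16) an interferon regulatory factor. At 4.4 mg/ml, 14 targets rose and none fell, Tnf (2.26 ± 0.39, edgeR, adjusted p = 0.0030) among them. There, 14.8% of all genes passed in either direction. Without replicate 2 of every group no target rose, against 14 without replicate 1 and 13 without replicate 3. Calls over all genes moved too, at 106, 1615, and 946 in these fits, in that order, against 2054 with all libraries. With 1 library left out, 8 to 15 targets rose, fewest without replicate 1 at 4.4 mg/ml. Ccr7, the receptor for CCL19, was named after its value was seen and did not pass over all densities (0.04 ± 0.22) or at 4.4 mg/ml (0.07 ± 0.30).
With the block, 18 targets rose and 2 fell in collagen, and 5 had a rising density trend (Tnf, Ccl3, Cxcl10, Gadd45b, Ier3), with slopes of 0.57 to 1.00 log2 units per mg/ml. In these comparisons, 34.8% and 1.45% of all genes passed with the block. Map3k8 (0.58 ± 0.14) had a rising and Tlr9 (-0.74 ± 0.15) a falling trend in that fit. Without the block, no gene of these lists had a trend that passed. The 10 rising targets became 2 without replicate 2 of every group, and 5 without replicate 3, and stayed at 10 without replicate 1. Over all genes, these fits called 631, 1431, and 1550, in that order, against 2790 with all libraries. The rising targets were 6 to 12 when single libraries were left out, with 6 without replicate 2 of the suspension titled plus CCL19.

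**Figure D4:**
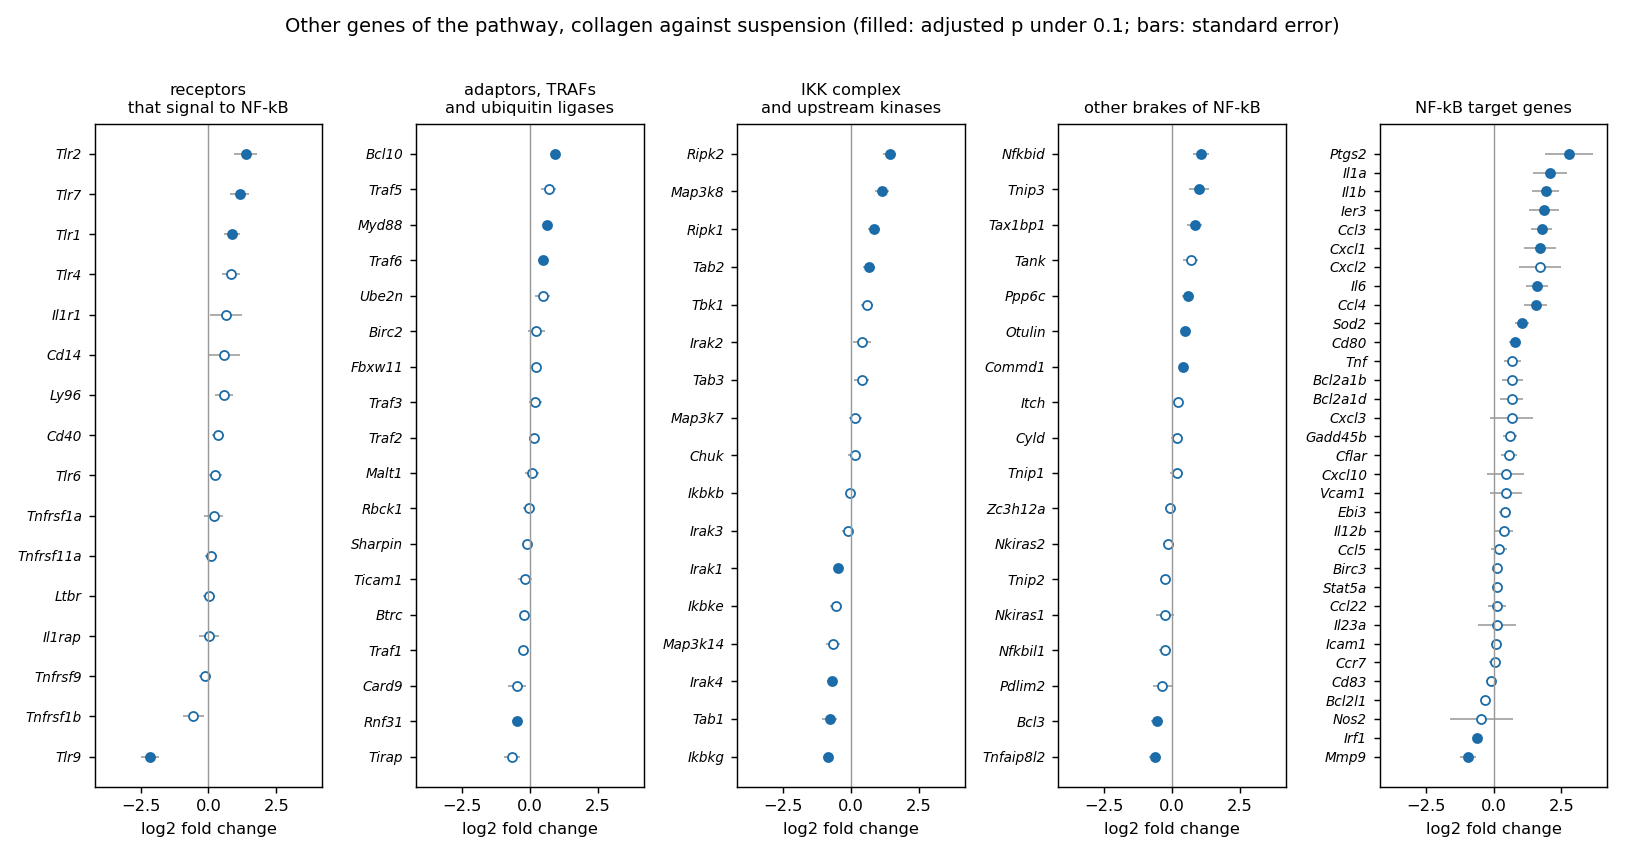
Log2 fold change between collagen and suspension (x axis, bars for the standard error) of the tested genes of 5 pathway lists, with filled points for adjusted p under 0.1 in the fit without the replicate block. Tlr9 lies lowest among the receptors (-2.16), and Ptgs2 highest among the targets (2.78).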

How the data were processed

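The 10 members and the pathway lists were chosen with earlier results of these data known. The authors made stranded mRNA libraries (TruSeq), sequenced 50-base single-end reads, aligned them with STAR 2.7.0f to GRCm38, and deposited counts per Ensembl gene. The counting tool and its strand setting are not given in the sources used here. Symbols, positions, exon lengths, and GC content came from GENCODE M21, and promoter windows from RefSeq.

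The deposited counts of all 18 libraries (13062944 to 28059839 per library) were tested with edgeR 4.0.16 in R 4.3.3: TMM scaling, filterByExpr, 1 coefficient per group, the quasi-likelihood F-test (two-sided), and Benjamini-Hochberg adjustment over 13844 genes with a threshold of 0.1, after the study's methods, in 8 comparisons. Log2 CPM used a prior count of 2. The script was tested on simulated data.

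The library names give 1 date and lane per replicate number, so the number was taken as a pairing, and a fit with it as a block was an alternative. Deviations from group means correlated at a mean r of 0.434 for 45 pairs with the same number (-0.149 to 0.846) and -0.214 otherwise. The biological coefficient of variation was 49% without and 33.1% with the block. No pair among 153 pairs of libraries held identical counts. Other alternatives were DESeq2 1.42.0, its size factors in edgeR, no filter, fits of the compared groups alone, a threshold of 0.05, offsets for GC content and length (loess, span 0.5), and leaving out replicate numbers or libraries. Leaving out libraries with the block was added after seeing the data.

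The text names the 10 members. Of each pathway list, it names up to 4 genes per direction with the largest change among those called in collagen against suspension, and any called in the density trend. Of each member, it names the 3 genes with the highest Pearson r of log2 CPM after subtraction of the replicate mean, or the first of them.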

Additional observations from a re-analysis of the deposited data

Results flagged for a closer look

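Rel in the 6 suspension libraries was tested for a library that stands apart, with 10 further items tested the same way. Replicate 2 of the suspension titled without CCL19 had the highest value, 418 CPM, and its gap to the next library was 0.71 of the group's range, above Dixon's critical value at the 95% level. Of the 11 items, 1 was past its critical value, and chance flags about 1 in 20 groups. The same library was among those farthest from the others over all genes, and its log2 level fell by 0.37 per 10 points of GC content. The part of this in the value of Rel was not tested.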

How the results depend on the processing

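The number of members called depended most on the replicate block. Over collagen against suspension it was 1, and it became 3 with the replicate block, 2 with DESeq2, 4 with DESeq2 and the block, 2 with GC and length offsets, and 6 with both offsets and block. Of all genes, these fits called 34.8%, 21.1%, 33.3%, 20.1%, and 37.1%, in that order, so the background rose with the block too. At 2.6 mg/ml it was 0, and it became 2 with the block, with DESeq2 and the block, and with offsets and the block, and 1 with DESeq2, with its size factors, without a filter, and with offsets. These 7 fits, in that order, called 21.6%, 22.3%, 24.9%, 12.7%, 7.97%, 4.11%, and 8.04% of all genes. At 3.5 mg/ml it was 0, and it became 1 with the block, 1 with DESeq2 and the block, and 3 with offsets and the block (18.4%, 21.2%, and 18.1% of all genes). At 4.4 mg/ml it was 1, and it became 4 with the block, with DESeq2 and the block, and with offsets and the block, and 2 without a filter and with offsets (31.9%, 4959 of 16553 genes with an adjusted p, 34.8%, 7.98%, and 16.6% of all genes). For the density trend it went from 0 to 1 with offsets and the block (5.12% of all genes), and between 4.4 and 1.7 mg/ml from 0 to 2 with DESeq2 and the block and to 3 with offsets and the block (6.34% and 7.02%). When a replicate number was left out, the count was 0 to 1 over all densities, at 2.6, and at 4.4 mg/ml, and 0 to 0 in the other 5 comparisons. Over all genes, these fits called 631 to 1550 genes over all densities, 0 to 1318 at 2.6 mg/ml, and 106 to 1615 at 4.4 mg/ml. When a library was left out, the count of members was 1 to 2 over all densities and at 4.4 mg/ml, 0 to 2 at 2.6 mg/ml, and 0 elsewhere. When a library was left out with the block, it was 1 to 4 over all densities, 0 to 4 at 2.6 mg/ml, 3 to 4 at 4.4 mg/ml, 0 to 2 at 3.5 mg/ml, for the trend, and between the ends, and 0 to 1 at 1.7 mg/ml and between the suspension groups.

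Some log2 differences between collagen and suspension changed sign. Nfkb2 was at 0.0004 with offsets, 0.0816 with offsets and the block, and -0.437 to 0.0337 when a replicate number was left out, the highest without replicate 3. Nfkbia was at -0.0044 with offsets and the block, and Rela was at -0.0073 with the block and without replicate 2 of the suspension titled without CCL19. None of these values passed the test, and the cause was not tested. Fits of the compared groups alone were not run for collagen against suspension, which uses all libraries. With 3 libraries per group, the smallest exact p is 0.1 between densities and 0.0238 against suspension.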
